A study of Mus musculus with 12 samples.

Results

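The enzymes of glycolysis, pyruvate metabolism and the TCA cycle, with the glucose transporters that feed them and the shuttle enzymes that link cytosol and mitochondria, were examined in 4 populations of MIN6 cells, an insulin-secreting line that was established from a mouse insulinoma. The members were chosen by function, as 50 genes listed by symbol, with earlier results of these data known. Of these, 47 were represented by a probe set that the array annotation assigns to 1 gene, out of 15964 such genes in the series. Gpi1, Gapdh and Eno1 had no such probe set. Hk2, Pgam2 and Got1 were too dim for the test, so that 44 of the 47 were tested, out of 12267 genes tested in all.

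The 4 populations were parental cells at passages 35 to 40 (Pr-HP), cells of clone 4 at passages 40 to 50 (C4-HP) and 17 to 20 (C4-LP), and parental cells again at passages 17 to 20 (Pr-LP). Clone 4 is a single subclone of the parental line, obtained by limiting dilution, and all 4 populations descend from cells that carry the SV40 T antigen. In the study C4-HP, C4-LP and Pr-LP cells are the responder cells, which secrete insulin in response to glucose, and Pr-HP cells are the non-responder cells. RNA of each population was hybridised once to each of the 3 chips (A, B and C) of an Affymetrix mouse array set, 12 arrays in all, so that no array was repeated and Pr-HP stood alone on its side of the comparison.

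In β cells glucose enters through a transporter and is phosphorylated, and glycolysis turns it into pyruvate with little diversion to lactate. Pyruvate enters the mitochondria, where pyruvate dehydrogenase feeds the TCA cycle and pyruvate carboxylase refills it. The resulting rise of ATP over ADP closes potassium channels and leads to insulin release, and the NADH of the cytosol is carried to the mitochondria by the glycerol phosphate and malate-aspartate shuttles.

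Fbp1 and Pfkp, which encode enzymes that catalyse opposite directions of the same step between fructose 6-phosphate and fructose 1,6-bisphosphate, were the members more than 2-fold higher in Pr-HP cells than in the mean of the responder cells. Fh1 and Me1 joined them when Pr-HP was set against Pr-LP alone. Slc2a2, Eno2 and Pdk1 differed more than 2-fold among the responder cells. The other members lay closer together, and none of the 44 passed the limma test after adjustment.

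The windows around the annotated start sites of these genes are shown for Fbp1 and Pfkp, which were higher in Pr-HP, and for Slc2a2 and Eno2, which set the clone 4 populations apart. Each runs from 250 bases before to 50 bases after the start site (RefSeq, GRCm38.p6), and capitals mark the GC box GGGCGG, read on both strands (CCGCCC on the other), the element bound by factors of the Sp1 family. They lie at chr13:62888233-62888532 (minus strand) for Fbp1, at chr13:6648722-6649021 (minus strand) for Pfkp, at chr3:28697653-28697952 (plus strand) for Slc2a2 and at chr6:124769624-124769923 (minus strand) for Eno2.
Fbp1: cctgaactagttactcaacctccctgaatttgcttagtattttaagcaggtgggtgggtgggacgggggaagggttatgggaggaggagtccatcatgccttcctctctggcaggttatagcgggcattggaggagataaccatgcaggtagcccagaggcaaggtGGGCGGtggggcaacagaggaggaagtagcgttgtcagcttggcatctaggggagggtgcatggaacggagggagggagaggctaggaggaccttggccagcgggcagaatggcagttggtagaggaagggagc
Pfkp: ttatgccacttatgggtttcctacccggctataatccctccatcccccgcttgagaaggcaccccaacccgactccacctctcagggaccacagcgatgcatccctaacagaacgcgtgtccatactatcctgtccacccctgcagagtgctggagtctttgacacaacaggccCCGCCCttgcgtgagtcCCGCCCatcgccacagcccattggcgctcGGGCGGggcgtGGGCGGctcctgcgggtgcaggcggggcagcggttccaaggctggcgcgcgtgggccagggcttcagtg
Slc2a2: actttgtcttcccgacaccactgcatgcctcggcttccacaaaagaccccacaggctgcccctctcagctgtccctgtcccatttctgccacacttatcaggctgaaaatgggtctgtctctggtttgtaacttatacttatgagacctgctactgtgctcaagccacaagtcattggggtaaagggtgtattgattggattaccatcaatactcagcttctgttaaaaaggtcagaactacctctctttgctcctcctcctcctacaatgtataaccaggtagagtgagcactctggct
Eno2: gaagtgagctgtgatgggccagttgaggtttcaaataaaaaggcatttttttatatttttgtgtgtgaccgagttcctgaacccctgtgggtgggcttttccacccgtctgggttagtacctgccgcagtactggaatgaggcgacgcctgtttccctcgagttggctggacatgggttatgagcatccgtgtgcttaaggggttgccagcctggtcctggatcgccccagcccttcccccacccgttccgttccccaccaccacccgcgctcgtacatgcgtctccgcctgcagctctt

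The Pfkp window held 4 matches of the GC box, the Fbp1 window 1 match and the Slc2a2 and Eno2 windows 0. RefSeq windows were found for 45 of the 47 members, 65 windows in all because some genes have several start sites. The GC box was present in 52.3% of these windows and in 35.7% of all 32851 windows of that length. The sequence ACGTG, which is a core form of the hypoxia response element and is also part of the E-box CACGTG, was present in 38.5% of the members' windows and in 19.6% of all windows. CACGTG itself was present in 10.8% and 7.15%. None of the 4 windows printed above holds ACGTG. These matches describe the letters in the windows, and binding was not measured here.

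**Figure D1:**
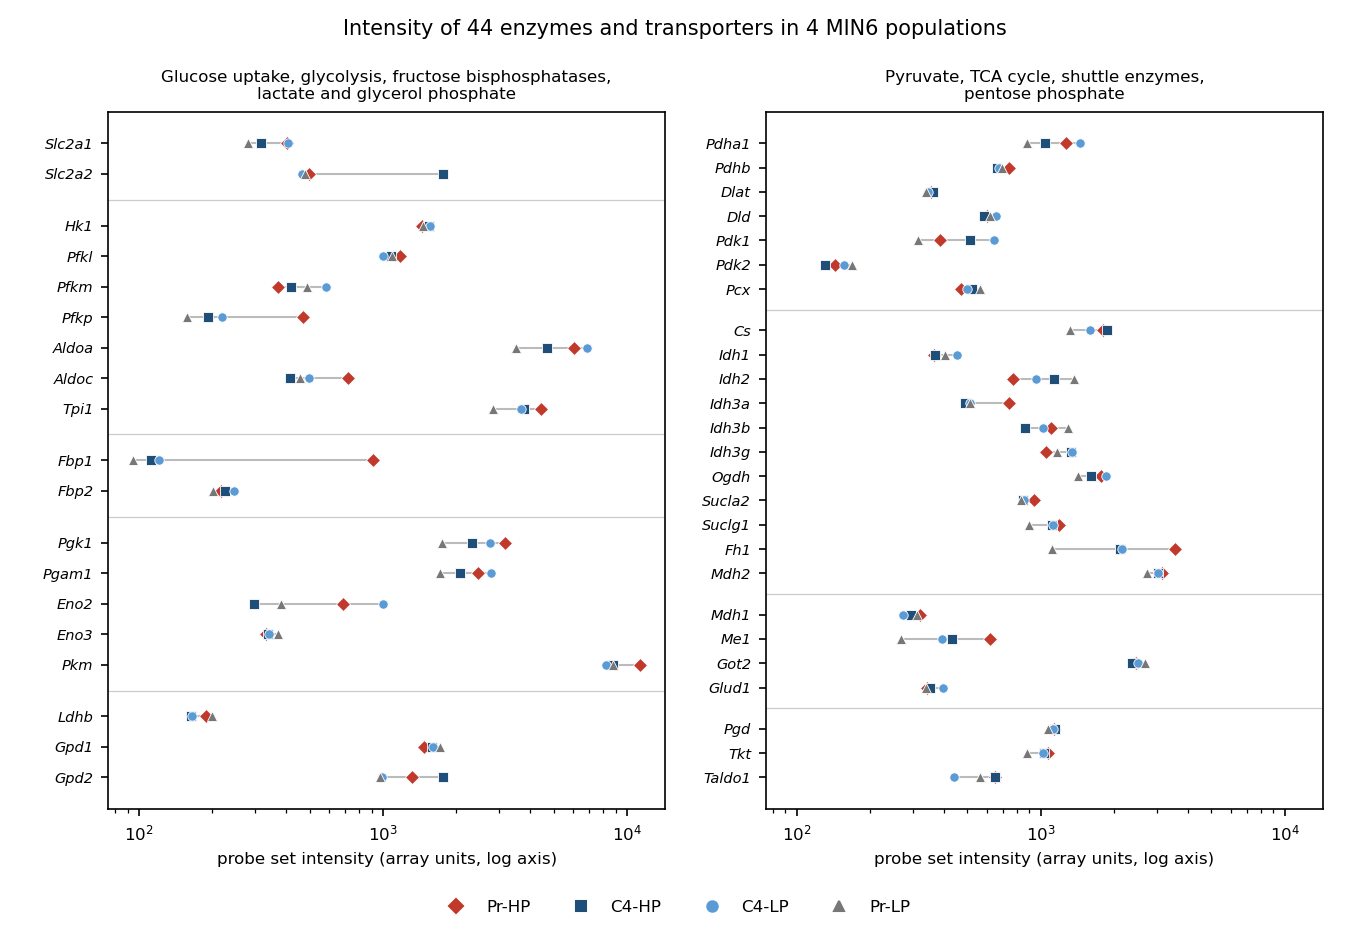
Intensity of the 44 tested members in Pr-HP (red diamonds), C4-HP (dark blue squares), C4-LP (light blue circles) and Pr-LP (grey triangles), on a log axis in array units, with 1 array for each point and the members grouped by role. For 26 of the 44 members (59.1%, against 78.6% of all genes) the highest and lowest populations lie within 1.5-fold, and the Pr-HP points of Fbp1 (909.5) and Pfkp (468.4) stand apart from the other 3.

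The identity of the cells was checked with markers. The 8 β-cell markers measured, among them Ins2, Iapp, Pdx1 and Chga, summed to 36081 units in Pr-HP and to between 35890 and 39496 units in the responder populations, a sum in which Ins2 is the largest part. The study warns that the insulin signals may lie beyond the linear range of the arrays, so this sum can hide a difference. Its quantitative RT-PCR found much less Ins1 in Pr-HP and no significant difference in Ins2. The ratios of the 8 over the responder mean had a median of 0.855. Of the 8 only Pcsk1 passed 2-fold (2.12-fold higher in Pr-HP), and 5 were lower in Pr-HP, with Abcc8 at 0.659 and Nkx2-2 at 0.758 (adjusted p of 0.56 and 0.78, limma). Markers of other cell types were not evenly spread. Gcg, the glucagon gene of α cells, read 10552 units in Pr-HP and between 502 and 3175 units in the responder populations. The 3 α-cell markers summed to 10842 units in Pr-HP and to between 985 and 6391 units in the responder populations, with Gcg more than 2-fold higher and Ttr more than 2-fold lower in Pr-HP. Of 5 macrophage markers only Cd68 was more than 2-fold higher in Pr-HP, and the list summed to 2641 units in Pr-HP and to between 1054 and 1100 units in the responder populations, while Lyz2, Csf1r and Itgam were too dim for the test. That higher sum comes from Cd68, at 1785 units in Pr-HP and between 177 and 210 units in the responder populations. Cd14 was at 0.975 of the responder mean. Of 5 duct markers only Car2 was more than 2-fold higher in Pr-HP, and the list summed to 4215 units in Pr-HP and to between 2908 and 3516 units in the responder populations. That higher sum comes from Car2, at 1831 units in Pr-HP and between 131 and 162 units in the responder populations. Krt19, high in Pr-LP alone, was at 0.564 of the responder mean, Krt7 at 0.708, Muc1 at 0.901 and Sox9 at 1.01. None of the 3 acinar and 6 fibroblast markers passed 2-fold. To follow RNA quality, the signal of the 3′ Gapdh probe set was divided by that of the 5′ one. The quotient was between 0.867 and 1.16 on the 3 Pr-HP arrays and between 0.968 and 1.31 on the responder arrays, with Pr-HP the lowest array of every chip. For Actb, the gene of β-actin, it was between 1.15 and 1.34 in Pr-HP and between 1.25 and 1.43 on the responder arrays. There Pr-HP was lowest on chips A and B, but on chip C it was at 1.34 and C4-LP at 1.30. The part of these differences in the results below was not tested, and in bulk RNA a smaller share of cells that express a gene cannot be told apart from less RNA in each cell.

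The first question was whether the enzymes differed between the non-responder and the responder cells. The comparison used limma on log2 intensities with 2 residual degrees of freedom and adjusted p-values over all 23340 probe sets tested (Benjamini-Hochberg). The error was the spread of the 3 responder populations, drawn by limma toward a spread typical of the chip. That prior weighed as 1.93 to 2.47 further degrees of freedom, so an SE is not the gene's own spread alone. Of the 44 members 0 had an adjusted p under 0.05, against 0.0814% (19 probe sets) of all probe sets. At an unadjusted p under 0.05 there were 5 members higher in Pr-HP and 0 lower, or 11.4% and 0%, against 5.49% and 4.3% of all probe sets. Members are counted here as genes, each by its brightest probe set, so these shares are not of the same unit. The 5 were Fbp1, Pfkp, Aldoc, Idh3a and Pkm. Fbp1 was the 1 member that entered the test through Pr-HP alone, since its 3 responder values lay under the brightness filter of its chip (152.7 units), so that its difference is given as a description and is no support for the counts that hold it. The fold of Pr-HP over the mean of the responder cells passed 2-fold upward for 2 members, Fbp1 and Pfkp, or 4.55% against 1.35% of all genes, and downward for 0 against 1.21%. These 2 passed whichever responder population was left out. The count was 5 without C4-LP, with Eno2 and Fh1 higher and Slc2a2 lower, and 3 without either of the other responder populations, with Slc2a2 lower in the absence of Pr-LP and Fh1 higher in the absence of C4-HP.

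The place of Pr-HP was also counted with no fold threshold. Pr-HP was above all 3 responder populations for 16 members, or 36.4% against 29.6% of all genes, and below all 3 for 8, or 18.2% against 27.8%. The 16 include Fbp1, Pfkp, Fh1 and Me1, and the distance of these shares from those of all genes was not tested. The median log2 difference of Pr-HP minus the responder cells was 0.14 over the 44 members and 0.0004 over all genes tested. It depended on which responder population was used. The median log2 ratio of Pr-HP was 0.18 over Pr-LP, 0.10 over C4-HP and 0.05 over C4-LP, and the median of the fitted difference was 0.06 without Pr-LP. In 37 of the 44 members, or 84.1% against 92.1% of all genes, Pr-HP lay within 1.5-fold of the mean of the responder cells.

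**Figure D2:**
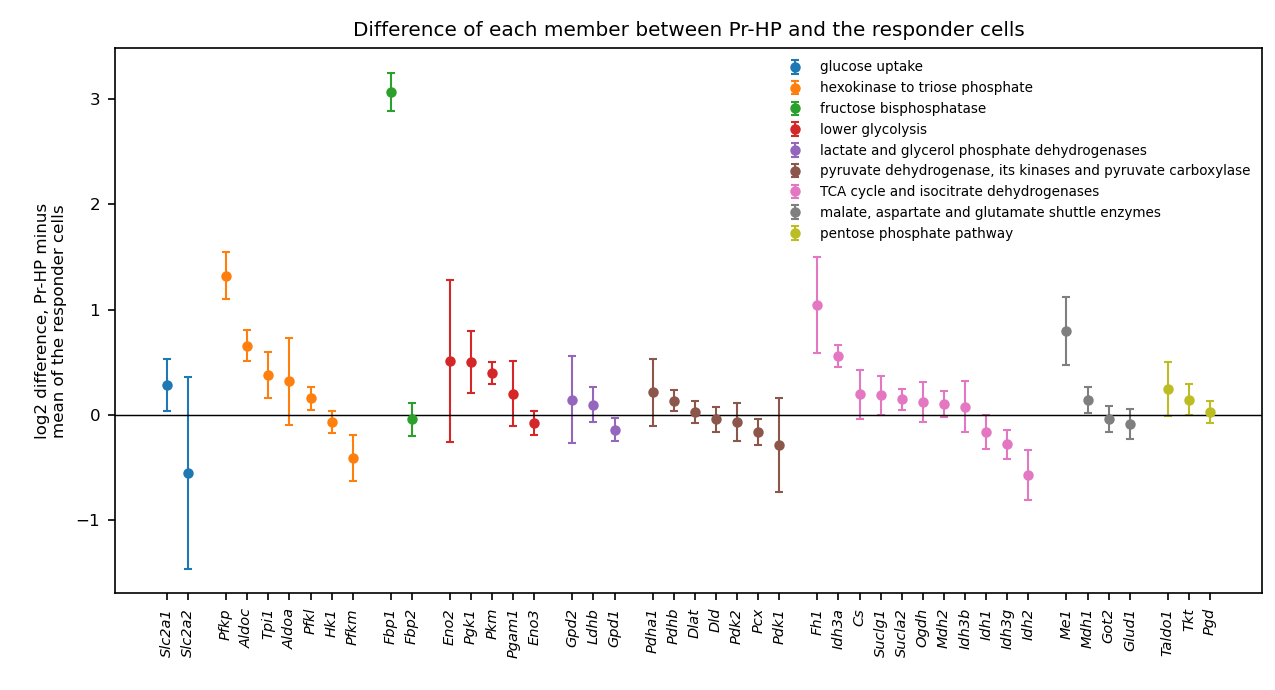
Log2 difference of Pr-HP minus the mean of the responder cells for the 44 tested members, grouped by role, with the standard error from limma as bars. Fbp1 (3.06) and Pfkp (1.32) lie highest, Fbp1 with a bar that rests in part on 3 responder values under the brightness filter. Slc2a2 (-0.55) and Eno2 have long bars because the responder cells differ among themselves.

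Fructose bisphosphatase removes a phosphate from fructose 1,6-bisphosphate and is known as a control point of gluconeogenesis. Fbp1 read 909.5 units in Pr-HP, against 112.3 units in C4-HP, 121.1 units in C4-LP and 94.8 units in Pr-LP. The responder values were dim, all under the filter of 152.7 units, and Pr-HP was above them. The fold was 8.31, with a log2 difference of 3.06 ± 0.18 (SE) and an adjusted p of 0.054 in limma. The SE rests in part on the dim responder values, and the log2 difference was 2.57 with a floor at the 40th percentile of the chip. The adjusted p ranged from 0.049 with a floor of 1.0 unit to 0.43 without C4-HP, and it was 0.15 with no filter on brightness. It has 1 probe set on the arrays, which leaves no second measurement. Fbp2, the muscle form of the enzyme, is the neighbouring gene in the annotation, on chromosome 13. Its probe set read 216.5 units in Pr-HP, against 225.3 units in C4-HP, 244.6 units in C4-LP and 200.5 units in Pr-LP, so that Pr-HP lay among the responder cells.

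The opposite reaction is catalysed by phosphofructokinase, which commits glucose to glycolysis and has a liver, a muscle and a platelet form. Pfkp, the platelet form, read 468.4 units in Pr-HP, against 191.9 units in C4-HP, 219.2 units in C4-LP and 157.3 units in Pr-LP. Pr-HP was 2.47-fold above the mean of the responder cells, with a log2 difference of 1.32 ± 0.22 (SE) and an adjusted p of 0.26 in limma. A second Pfkp probe set, whose responder values were under the brightness filter so that it too entered through Pr-HP alone, read 345.8 units in Pr-HP against 110.4 units in C4-HP, 140.9 units in C4-LP and 102.5 units in Pr-LP. The remaining one, on chip B, read 142.1 units in Pr-HP against between 128.5 and 138.2 units in the responder populations, and there the difference was 1.08-fold. The other forms did not share this order. Pfkl, the liver form, was 1.11-fold higher in Pr-HP and Pfkm, the muscle form, was at 0.748 of the responder mean, neither with an unadjusted p under 0.05.

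Glucose transporters were next. Slc2a2 encodes GLUT2, the transporter of rodent β cells, and read 499.2 units in Pr-HP, against 1754.5 units in C4-HP, 463.8 units in C4-LP and 478.4 units in Pr-LP. It was high in C4-HP alone, and the other 3 populations lay close together. Its log2 difference between Pr-HP and the responder cells was -0.55 ± 0.91 (SE; adjusted p of 0.89, limma), and without C4-HP it was 0.08. Slc2a1, which encodes GLUT1, read 403.4 units in Pr-HP, against 317.0 units in C4-HP, 406.7 units in C4-LP and 280.9 units in Pr-LP. Pr-HP and C4-LP were nearly equal and above the other two.

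Of the 7 tested enzymes from hexokinase to the triose phosphates, Pr-HP was above all 3 responder populations for 4 and below all 3 for 2. Over all genes these shares were 29.6% and 27.8%, and with so few members the distance from them was not tested. Hk1 encodes the low-Km hexokinase of most tissues, and its level in Pr-HP was 0.954 of the responder mean. Aldoc, an aldolase typical of brain, read 719.2 units in Pr-HP, against 415.8 units in C4-HP, 499.5 units in C4-LP and 455.9 units in Pr-LP. The groups did not overlap, and the fold was 1.57 with an adjusted p of 0.35 in limma. A second probe set of Aldoc, too dim for the test, was level over the populations. Aldoa, the common aldolase, followed another order, with 6055 units in Pr-HP, 4697 units in C4-HP, 6883 units in C4-LP and 3525 units in Pr-LP. The second Aldoa probe set also had Pr-HP and C4-LP high, and Pr-LP lowest.

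In lower glycolysis, Pgk1, which encodes the first ATP-producing enzyme of the pathway, showed a like spread, with 3159 units in Pr-HP, 2321 units in C4-HP, 2756 units in C4-LP and 1739 units in Pr-LP. Pkm, the pyruvate kinase of most tissues other than liver and red cells, read 11308 units in Pr-HP, against 8758 units in C4-HP, 8238 units in C4-LP and 8759 units in Pr-LP. Pr-HP was 1.32-fold above the responder mean, with a log2 difference of 0.40 ± 0.11 (SE) and an adjusted p of 0.42 in limma. The 2 other Pkm probe sets had log2 differences of -0.004 and 0.15, so that this difference rests on 1 probe set. Eno2, the enolase of neurons and endocrine cells, had the widest spread of the lower glycolytic enzymes. It read 688.2 units in Pr-HP, against 296.0 units in C4-HP, 999.4 units in C4-LP and 382.9 units in Pr-LP, and Pr-HP lay between the responder values. The low expression of lactate dehydrogenase is a known trait of β cells, and of its subunits Ldhb was a member and Ldha one of the other pathway genes described below. Ldhb differed by at most 1.22-fold between any populations.

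Gapdh, the dehydrogenase between the triose phosphates and Pgk1, had no probe set that entered the counts, but 9 control probe sets on the 3 chips carry its sequence. All 9 read higher in Pr-HP than in the responder mean, by 1.22-fold to 1.57-fold with a median of 1.38-fold. On chip A the probe set of the middle of the transcript read 14119 units in Pr-HP, against 10529 units in C4-HP, 10423 units in C4-LP and 8660 units in Pr-LP. All 9 also read higher in C4-LP than in Pr-LP, by 1.11-fold to 1.42-fold. The 9 control probe sets of Actb, the gene of β-actin outside these pathways, also read higher in Pr-HP than in the responder mean, by 1.39-fold to 1.62-fold with a median of 1.49-fold. These are repeated measurements of the same RNA and not independent samples.

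**Figure D3:**
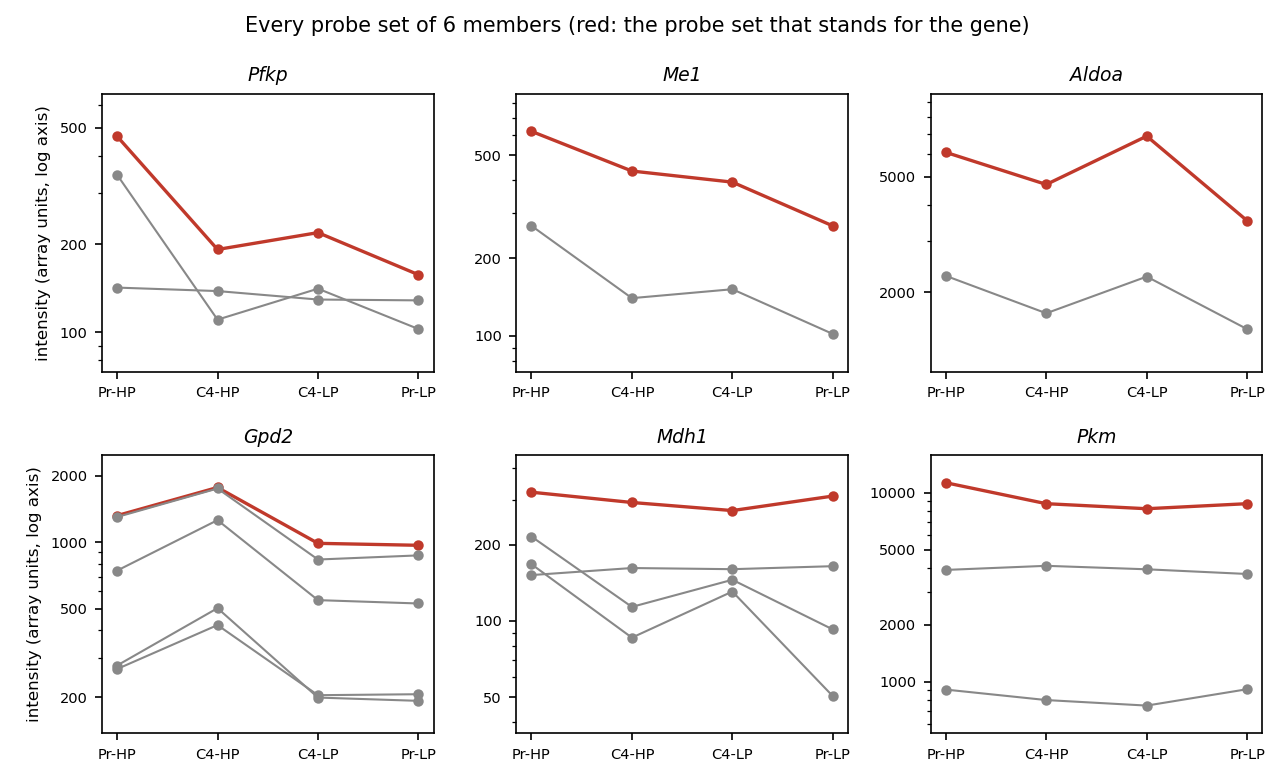
Intensity of every probe set of 6 members in Pr-HP, C4-HP, C4-LP and Pr-LP, on log axes in array units, with the probe set that stands for the gene in red and the others in grey. For Me1, Aldoa and Gpd2 the probe sets run in parallel, for Pfkp 2 of 3 do, and for Mdh1 and Pkm they part.

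At the entry of pyruvate into the mitochondria Pr-HP was within 1.5-fold of the responder mean for all 7 members, which were 3 subunits of pyruvate dehydrogenase with Dld, the kinases Pdk1 and Pdk2 and pyruvate carboxylase (Pcx). Pdk1, a kinase that inactivates pyruvate dehydrogenase, read 387.0 units in Pr-HP, against 512.8 units in C4-HP, 644.8 units in C4-LP and 315.6 units in Pr-LP. Both clone 4 populations lay above both parental ones, and the highest was 2.04-fold above the lowest. Pdha1, the catalytic subunit of pyruvate dehydrogenase, spanned 1.65-fold, with C4-LP highest and Pr-LP lowest. The array also carries 12 control probe sets for Pcx over its 3 chips, and their ratios of Pr-HP over the responder mean lay between 0.809 and 1.20 with a median of 0.962. These ratios parted by region of the transcript. The 3′ probe sets were between 0.809 and 0.887 and the 5′ ones between 1.14 and 1.20. The part of RNA quality in this was not tested. All 12 read lower in C4-LP than in Pr-LP, at 0.638 to 0.927.

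For the TCA cycle and the isocitrate dehydrogenases 11 members were tested. Of these, 5 were above and 3 below all responder values in Pr-HP, against 29.6% and 27.8% of all genes. With so few members the distance from these shares was not tested. Fh1, which encodes fumarase, read 3541 units in Pr-HP, against 2111 units in C4-HP, 2148 units in C4-LP and 1114 units in Pr-LP. Pr-HP was highest and Pr-LP lowest, with the clone 4 populations together between them, and the fold over the responder mean was 1.98 (adjusted p of 0.57, limma). Idh3a, the catalytic subunit of the NAD-dependent isocitrate dehydrogenase, read 744.5 units in Pr-HP, against 491.3 units in C4-HP, 512.9 units in C4-LP and 515.7 units in Pr-LP. The fold was 1.47, with a log2 difference of 0.56 ± 0.10 (SE) and an adjusted p of 0.29 in limma. The 2 other Idh3a probe sets that were bright enough, both on chip C, had log2 differences of -0.11 and -0.18, so that this difference too rests on 1 probe set. Its partner subunits did not follow, with Idh3b at 1.04 and Idh3g at 0.824 of the responder mean. Idh2, the NADP-dependent enzyme of mitochondria, was the furthest of these 11 below the responder mean. It was at 0.665 (adjusted p of 0.56, limma), and at 0.963 with its second probe set.

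Among the shuttle enzymes Me1, the cytosolic malic enzyme that yields NADPH and pyruvate, stood out. It read 620.0 units in Pr-HP, against 435.1 units in C4-HP, 394.1 units in C4-LP and 266.7 units in Pr-LP. The fold over the responder mean was 1.70 (adjusted p of 0.55, limma), and the second probe set gave 2.04. Mdh1, the cytosolic malate dehydrogenase, was 1.10-fold higher in Pr-HP. Its 3 other probe sets disagreed, at 1.82, 1.84 and 0.936 of the responder mean. Gpd2, the mitochondrial glycerol phosphate dehydrogenase, was at 1.06 of the responder mean in Pr-HP.

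Of the pentose phosphate pathway, which makes NADPH and ribose, 3 members were tested and all lay within 1.5-fold. Pgd, its second dehydrogenase, had the smallest range of all members. It read 1132 units in Pr-HP, against 1142 units in C4-HP, 1122 units in C4-LP and 1076 units in Pr-LP.

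The second question was how high and low passage differed in the parental line, where the response to glucose was lost, and in clone 4, where it was kept. Each side of these comparisons is 1 array per chip, so there is no test and a call means more than 2-fold. Of the 44 members 4 were more than 2-fold higher in Pr-HP than in Pr-LP and 0 lower, or 9.09% and 0%, against 2.07% and 1.59% of all genes. They were Fbp1 at 9.59-fold, Fh1 at 3.18-fold, Pfkp at 2.98-fold and Me1 at 2.32-fold. With a floor at the 40th percentile of the chip the value of Fbp1 was 5.96-fold. In clone 4, by contrast, 1 member was more than 2-fold higher in C4-HP than in C4-LP and 1 lower, or 2.27% each, against 0.359% and 0.995% of all genes. These were Slc2a2 at 3.78-fold and Eno2 at 0.296. The difference between the 2 passage ratios was not tested. For the 4 parental genes the ratio of C4-HP over C4-LP was 0.927 for Fbp1, 0.983 for Fh1, 0.876 for Pfkp and 1.10 for Me1.

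Gpd2 was higher in both high-passage populations than in both low-passage ones, and highest in C4-HP. The probe set that stands for it read 1320 units in Pr-HP, 1768 units in C4-HP, 989.1 units in C4-LP and 969.1 units in Pr-LP. The ratio of C4-HP over C4-LP was 1.79 there and between 2.07 and 2.53 in the 4 other probe sets. That of Pr-HP over Pr-LP was 1.36 there and between 1.30 and 1.49 in the 4 others. C4-HP was the highest population in all 5, and Pr-HP came next in all 5. The median log2 ratio over the 44 members was 0.18 for Pr-HP over Pr-LP and -0.02 for C4-HP over C4-LP, against 0.002 and 0.005 over all genes.

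**Figure D4:**
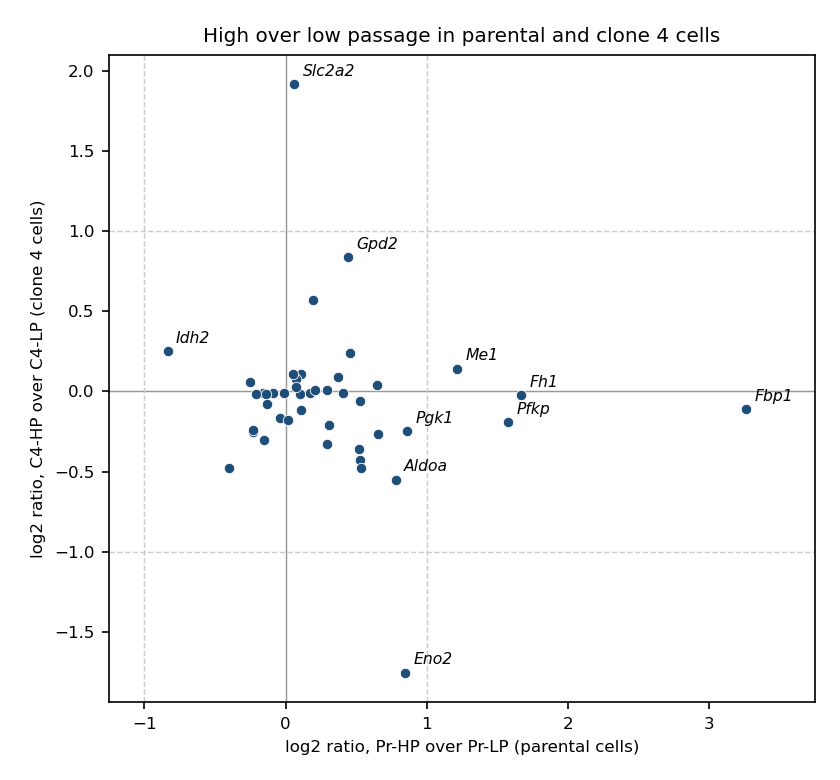
Log2 ratio of Pr-HP over Pr-LP (horizontal axis) and of C4-HP over C4-LP (vertical axis) for the 44 tested members, with 1 array per population and chip and dashed lines at 2-fold. Fbp1, Fh1, Pfkp and Me1 lie to the right near the horizontal line, Slc2a2 lies at the top near the vertical line, and Eno2 lies to the right and far down.

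The third question was how the clone differed from the parental cells at low passage. In C4-LP 2 members were more than 2-fold higher than in Pr-LP and 0 lower, or 4.55% and 0%, against 1.84% and 1.17% of all genes. These were Eno2 at 2.61-fold and Pdk1 at 2.04-fold. Below 2-fold were Aldoa at 1.95-fold, Fh1 at 1.93-fold, Pdha1 at 1.65-fold, Pgam1, which encodes phosphoglycerate mutase, at 1.62-fold and Pgk1 at 1.59-fold. The median log2 ratio over the members was 0.14, against -0.009 over all genes. The 4 comparisons share arrays, Pr-LP among them, and are not independent of each other.

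Pr-LP was the lowest of the 4 populations for 22 of the 44 members, or 50% against 26.7% of all genes. The 22 include Slc2a1, Aldoa, Tpi1, Pgk1 and Pgam1 of uptake and glycolysis, Cs, Ogdh, Suclg1, Fh1 and Mdh2 of the TCA cycle, and Me1. C4-LP was highest for 14 members, Pr-HP for 16, Pr-LP for 8 and C4-HP for 6. The ratio of the highest to the lowest population had a median of 1.35 over the members and 1.23 over all genes, and it was above 2 for 7 members, or 15.9% against 7.43% of all genes, Fbp1 among them. This order was noticed in the values and not set beforehand, and with 1 array per population it describes these arrays.

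Where a gene had several probe sets, their readings were compared. Of the 47 members 26 had more than 1 probe set. For 16 members at least 2 were bright enough to be tested. In 12 of these all had the same sign of the limma log2 difference between Pr-HP and the responder cells. The 12 include Pfkp, Me1, Aldoa, Gpd2, Cs and Idh2. A shared sign was not a shared size. The ratio of Pr-HP over the responder mean ran from 1.08 to 2.93 for Pfkp and from 0.665 to 0.963 for Idh2. The share with the same sign over all genes was not counted, so the 12 do not measure how reliable the values are. In the other 4 the signs were mixed.

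Other genes of the pathways outside the members were measured on the same arrays, 48 of 54 listed, of which 41 were tested. None passed the limma test after adjustment. At an unadjusted p under 0.05 there were 7 higher in Pr-HP and 1 lower, or 17.1% and 2.44%, against 5.49% and 4.3% of all probe sets. Here too genes are set against probe sets. Of the 41, 2 entered the test through Pr-HP alone (Pdhx and Pdp1). Pdp1 is among the 7 and is no support for that count. The 2-fold threshold against the responder mean was passed upward by 2, Ldha and Rpia, or 4.88% against 1.35% of all genes. Ldha, the subunit of lactate dehydrogenase that predominates in muscle, read 3059 units in Pr-HP, against 580.3 units in C4-HP, 1397 units in C4-LP and 358.3 units in Pr-LP. Pr-HP was 3.93-fold above the responder mean (adjusted p of 0.53, limma), and among the responder cells C4-LP was well above the others. Rpia, the ribose phosphate isomerase of the pentose phosphate pathway, read 991.6 units in Pr-HP, against 451.9 units in C4-HP, 354.3 units in C4-LP and 496.0 units in Pr-LP (adjusted p of 0.30, limma). Pdk3, another pyruvate dehydrogenase kinase, was 2.13-fold higher in C4-LP than in Pr-LP. Ldha was 8.54-fold higher in Pr-HP than in Pr-LP, 0.415 in C4-HP relative to C4-LP and 3.90-fold higher in C4-LP than in Pr-LP. Mpc1, a subunit of the mitochondrial pyruvate carrier, stayed just under 2-fold and was chosen after its values were seen. It read 646.2 units in Pr-HP, against 332.0 units in C4-HP, 317.8 units in C4-LP and 338.1 units in Pr-LP (adjusted p of 0.13, limma), and a second, dimmer probe set was 1.10-fold higher in Pr-HP.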

How the data were processed

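RNA of 4 MIN6 populations was labelled and hybridised to Affymetrix U74v2 chips A, B and C, 1 array per population and chip. The authors deposited 1 intensity per probe set and array, on a linear scale. The methods name the GeneChip software. How probes were summarised and arrays normalized: not given in the sources used here. Medians ranged from 214.2 to 216.0 units on chip A, and the arrays of chips B and C were as close, so no further scaling was applied. Depth has no meaning for arrays, and their number limits the precision.

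Probe sets were named from the platform annotation. Among 36701 without the controls, 1 symbol was given for 29131, several for 724 and none for 6846. No probe set of Ins1 was named there. A gene was represented by its probe set with the highest mean. Values under the 20th percentile of the chip were raised to it, and a probe set was tested if at least 1 array exceeded the 40th percentile. Pr-HP was compared with the mean of the responder cells in limma 3.58.1 (R 4.3.3) within each chip on log2 values, with Benjamini-Hochberg adjustment over the 3 chips. Folds were ratios of floored intensities with the brighter side at 100 units or more. The 3 responder populations differ by clone and passage and so are not replicates.

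The members and lists were chosen with earlier results of these data known. Values by population were given for members with an unadjusted p under 0.05 or past 2-fold in any comparison, Fbp1, Pfkp, Gapdh, Pkm, both glucose transporters and the member with the smallest range. Of the other pathway genes those past 2-fold were named. Fbp2, Aldoa, Pgk1 and Gpd2, and the members and pathway genes named with ratios only, were added after their values were seen. Alternatives covered the probe set, normalization, floor, filter, fold threshold, a clone term and leaving out each responder population.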

Additional observations from a re-analysis of the deposited data

Results flagged for a closer look

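Eno2 moved in opposite directions with passage in the parental and the clone 4 cells. Pr-HP over Pr-LP was 1.797 and C4-HP over C4-LP was 0.2962. A gene was listed here when its ratios passed 1.5-fold in opposite directions, a limit chosen after the values were seen, and Eno2 was the only tested member that did, among 172 of 12267 genes (1.4%). Outside the members, Ldha passed the same limit, with 8.54 for Pr-HP over Pr-LP and 0.415 for C4-HP over C4-LP. Each ratio is between single arrays, and the difference between the 2 ratios of a gene was not tested.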

How the results depend on the processing

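The precision is limited by single arrays and by 2 residual degrees of freedom. No paired analysis was possible because each population has 1 array on a chip. With a floor of 1.0 unit the limma count was 1 (Fbp1, among 32 calls in all) in place of 0. It stayed at 0 under quantile normalization, a floor at the 40th percentile, no filter, the second probe set, a clone term and without any responder population. The median log2 difference of the members ranged from 0.05821 (without Pr-LP) to 0.1379 (without C4-HP) when a responder population was left out. The count past 2-fold against the responder cells was 7 at a 1.5-fold threshold, with 5 higher and 2 lower, and between 3 and 5 without a responder population. The counts past 2-fold in the other 3 comparisons stayed within 1.5 times under the alternatives run for them. So did the counts of members with Pr-HP above or below all 3 responder populations and with Pr-LP lowest, under the second probe set and quantile normalization, alternatives added after seeing the data. For the second probe set 35 members were counted, and a member with only 1 probe set kept it. Part of the agreement under that alternative, here and in the counts above, was therefore fixed beforehand. Of the 35, Pr-HP was above all 3 for 11 and below all 3 for 8, and Pr-LP was lowest for 18.

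The limma log2 difference of 4 members changed sign. That of Slc2a2 was 0.06113 with parental or clone 4 origin as a second term, and it ranged from -0.8762 to 0.08354 without a responder population, the highest without C4-HP. Pdk1 was at 0.2943 with the origin term. With their second probe sets Pkm was at -0.003963 and Idh3a at -0.1063. Outside those followed, Pdhb and Mdh1 also changed sign with their second probe sets. Pdhb went from 0.137 to -0.186 and Mdh1 from 0.142 to -0.0953. The cause was not tested. Over the other alternatives 129 values of named members kept their direction and side of the threshold, and 1, the adjusted p of Fbp1 with a floor of 1.0 unit, passed it. That adjusted p ranged from 0.0492 to 0.426 and was 0.149 with no filter. The fold of Fbp1 in Pr-HP over Pr-LP was 5.956 with a floor at the 40th percentile, in place of 9.594.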
